A study of Mus musculus castaneus and Mus musculus domesticus and Mus musculus with 11 samples.

Results

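Rtn4, which encodes Nogo, the 3 Nogo receptors Rtn4r, Rtn4rl1 and Rtn4rl2, their co-receptors Lingo1, Ngfr and Tnfrsf19, and the LAR-family phosphatases Ptprs, Ptprf and Ptprd were followed in motor neuron cultures of 3 mouse lines. The 10 genes were taken by symbol from the 27071 Ensembl genes of the count matrix, and all 10 passed the filter on low counts that left 14839 genes for testing. The cultures, differentiated from stem cells, came from a CASTx129 cross labelled 129CAS (the hybrid), from CAST/EiJ (CAST, a wild-derived castaneus strain) and from 129S6/SvEv (129, a laboratory strain), with 3 libraries of polyadenylated RNA per line. No treatment, transgene or gene deletion is given for any line, and separate cultures or clones are not stated, so the p-values cover the spread among these libraries, which may be technical. Further CAST samples, numbered 7 and 8 in the labels, were not analysed here. Motor neurons are the labelled cell type of every library, and the series set the lines' expression side by side for a culture model of variation in neurite growth.

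Nogo is a reticulon of the endoplasmic reticulum and of the surface of oligodendrocytes and neurons, and it is known for stopping growth cones in the adult central nervous system. The Nogo receptors are lipid-anchored leucine-rich repeat proteins without a cytoplasmic part, which signal into the cell through Lingo1 and either p75 (Ngfr) or Troy (Tnfrsf19). The LAR-family phosphatases bind the sugar chains of chondroitin sulphate proteoglycans, on which axons stall in scars, and of heparan sulphate proteoglycans, on which they grow, and they also organise synapses.

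The receptors and the phosphatases are families of related genes, and stretches in which their coding sequences are much alike show how far a read can be assigned to 1 member. Each set below starts from an in-frame window of 60 coding bases of Ptprs or Rtn4r, set beside its closest match in each other member. The window shown had the fewest summed differences from those matches, and differences between the other members did not enter the choice. Sequences are from the longest coding sequence of each gene in GENCODE M21 on GRCm38, written 5′ to 3′ on the coding strand. Capitals mark the positions at which the 3 members are not all identical.

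Ptprs: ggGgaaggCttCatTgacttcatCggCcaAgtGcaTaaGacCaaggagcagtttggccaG

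Ptprf: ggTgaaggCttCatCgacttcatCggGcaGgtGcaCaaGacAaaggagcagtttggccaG

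Ptprd: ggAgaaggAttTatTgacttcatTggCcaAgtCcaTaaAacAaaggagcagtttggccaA

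Rtn4r: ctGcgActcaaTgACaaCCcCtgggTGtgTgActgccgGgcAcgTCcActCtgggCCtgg

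Rtn4rl1: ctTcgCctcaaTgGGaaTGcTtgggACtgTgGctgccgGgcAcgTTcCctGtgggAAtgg

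Rtn4rl2: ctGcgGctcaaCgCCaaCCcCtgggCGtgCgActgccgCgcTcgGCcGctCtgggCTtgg

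The phosphatases shared 48 of the 60 positions, and all 12 that differed fell on the last base of a codon. The Nogo receptors shared 40, and 14 of the 20 that differed fell on the last base of a codon. The longest run of identical coding bases was 27 between Ptprs and Ptprf, 26 between Ptprf and Ptprd, 21 between Ptprs and Ptprd, and 13 to 15 between the Nogo receptors. Within the coding sequence, then, no run longer than 27 bases was common to any pair of these family members. The length of the reads is not given in the sources used here.

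None of the 10 genes passed the threshold between any pair of lines in edgeR's quasi-likelihood test with Benjamini-Hochberg adjustment over all tested genes. In hybrid against 129, 0 of 10 passed, with 7.02% of all tested genes called. In hybrid against CAST, 0 of 10 passed (6% of all genes called), and in CAST against 129 likewise 0 of 10 (0.917% of all genes called). At an unadjusted p under 0.05, which 22.2%, 15.8% and 14.6% of all genes reached in edgeR, it gave 0, 0 and 1 of the 10 in these comparisons. DESeq2 gave 1, 0 and 1, but its own share of all genes at that level is not given here, so these counts have no background. After adjustment DESeq2 and limma-voom called 0 in each. A joint test over the 3 lines, which called 8.03% of all genes, also called 0, with edgeR adjusted p-values from 0.332 for Rtn4rl2 to 0.863 for Rtn4rl1. The intervals were wide, so these tests do not show that the lines are alike. The widest 95% interval of a log2 fold change ran from −2.36 to 0.75, for Ptprf in hybrid against 129, and the narrowest from −0.64 to 1.3, for Lingo1 in the same comparison.

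**Figure D1:**
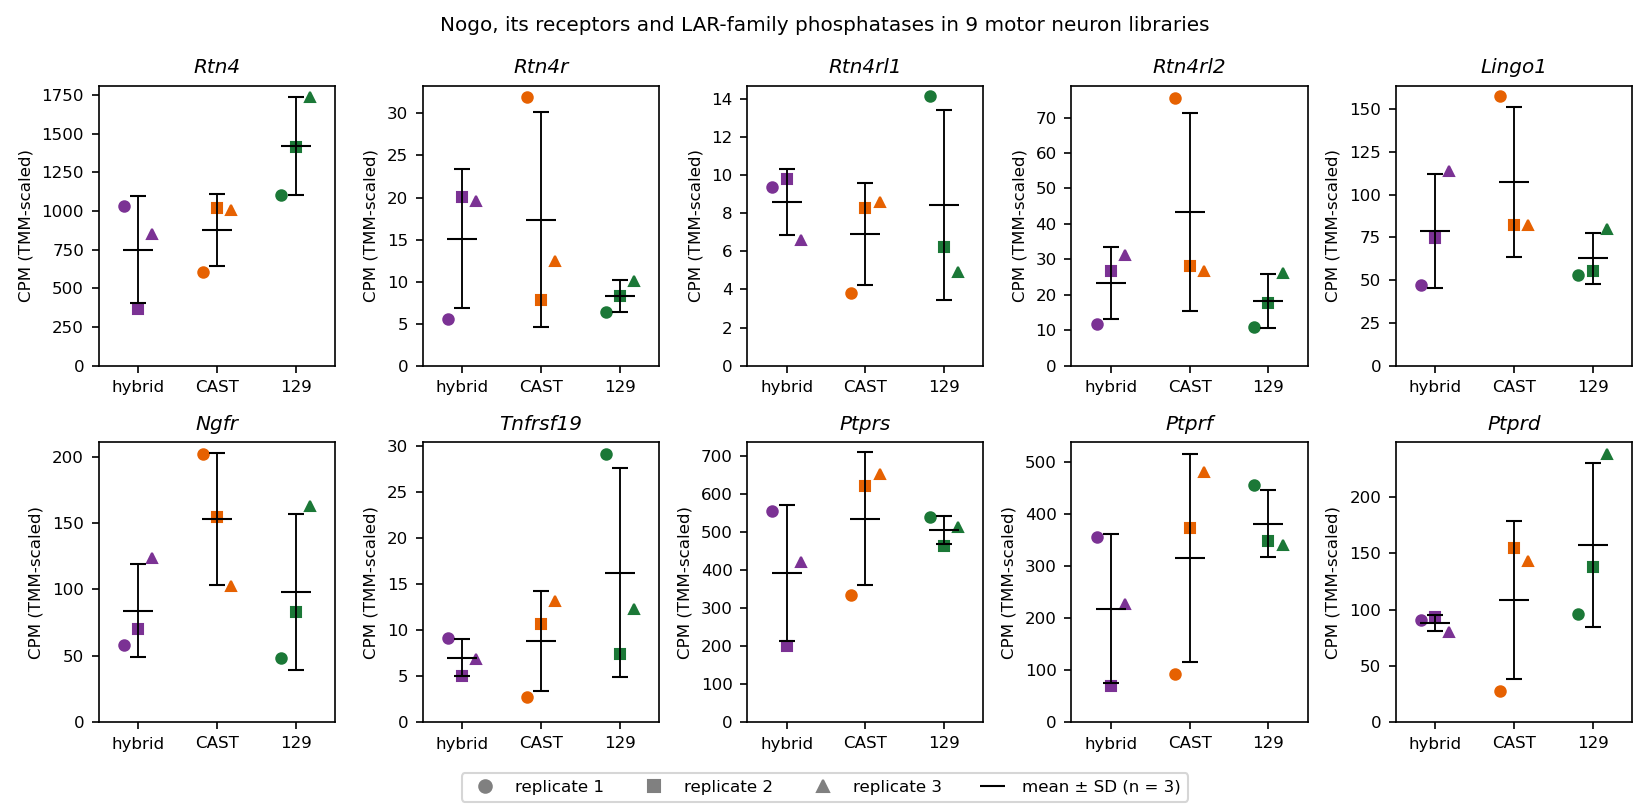
Expression of the 10 genes in each library (CPM, library-scaled counts after TMM normalization) for the hybrid, CAST and 129 lines. Points are libraries, with the shape giving the replicate number, and bars give mean ± SD (n = 3). For Rtn4 the 3 libraries of 129 lie above every hybrid and CAST library, and for Rtn4r, Rtn4rl2, Lingo1 and Ngfr the highest library is CAST 1.

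Libraries differed in 2 respects that touch these genes. Long transcripts were scarce in CAST 1 and hybrid 2, where relative log2 expression fell by 0.70 and 0.65 for each doubling of exon length. Hybrid 3 had a slope of −0.19, and the remaining libraries had slopes of 0.16 to 0.34. Levels of neuronal markers also varied within lines. The summed level of 10 neuron markers, among them Tubb3, Map2 and Stmn2, was 4995 to 13334 CPM in the hybrid, 6455 to 15027 CPM in CAST and 5032 to 12022 CPM in 129, and none of the 10 was at 0 in any library. Fibroblast and mesenchyme markers, also 10 genes with none at 0, summed to 1602 to 22719 CPM in the hybrid, 4491 to 6269 CPM in CAST and 4344 to 21357 CPM in 129. The 8 markers of spinal motor neurons summed to 448 to 1363 CPM in the hybrid, 566 to 3230 CPM in CAST and 359 to 1420 CPM in 129, and 1 of them was at 0 in hybrid 1. Prph held most of that sum, at 873, 1429 and 599 CPM on average in the hybrid, CAST and 129, and the transporter genes Slc18a3 and Slc5a7 averaged 38.4 to 162 CPM. The transcription factors Isl1, Mnx1 and Lhx3 averaged 21.8, 39.2 and 35.4 CPM, 1.68, 2.59 and 2.88 CPM, and 0.466, 0.292 and 1.25 CPM. Total counts ran from 7763077 to 18167577. In bulk RNA, fewer cells of a type and less RNA per cell cannot be told apart.

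Nogo itself was the most abundant of the 10 genes, and its libraries of 129 lay above those of both other lines without passing the test. Rtn4 (ENSMUSG00000020458, chromosome 11, 29692947 to 29744331) stood at 1032, 367 and 853 CPM in hybrid 1 to 3, at 606, 1019 and 1004 CPM in CAST 1 to 3, and at 1104, 1411 and 1739 CPM in 129 1 to 3. All 3 libraries of 129 were higher than every library of the other lines, while hybrid and CAST overlapped. Libraries did not overlap for 2 of the 10 genes in hybrid against 129 (37.5% of all tested genes), 0 in hybrid against CAST (19.2%) and 3 in CAST against 129 (28.6%). The mean was 751 ± 344 CPM in the hybrid, 876 ± 234 CPM in CAST and 1418 ± 317 CPM in 129 (SD, n = 3 each). Its log2 fold change was −0.92 ± 0.52 (SE) in hybrid against 129 and −0.69 ± 0.52 in CAST against 129, with edgeR adjusted p = 0.313 and 0.521. Without CAST 1 and hybrid 2, which held the lowest Rtn4 levels, the values were −0.57 ± 0.31 and −0.51 ± 0.31 (edgeR adjusted p = 0.284 and 0.516). Hybrid against CAST gave −0.22 ± 0.52.

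The count of Rtn4 covers its whole locus, so the long Nogo-A form, which carries an inhibitory region that the shorter forms lack, was not separated from them. Of its exonic bases, 18.4% overlap Eml6 on the opposite strand, and the strand setting of the counting is not given, so reads in the overlap cannot be told apart. Eml6 was at 13.3 to 25.4 CPM in the hybrid, 7.74 to 25.8 CPM in CAST and 33 to 83.9 CPM in 129, well below Rtn4 in every library.

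Among the Nogo receptors, Rtn4rl2 and Rtn4r had higher means in CAST than in 129, with CAST 1 the highest library of both, and neither difference passed. Rtn4rl2 (ENSMUSG00000050896, chromosome 2, 84871924 to 84886710), the receptor that binds myelin-associated glycoprotein, was at 11.8, 26.8 and 31.3 CPM in hybrid 1 to 3. It was at 75.7, 28.0 and 26.6 CPM in CAST 1 to 3 and at 11, 17.6 and 26.1 CPM in 129 1 to 3. CAST 1 held more than any other library, and the lowest CAST value lay just above the highest 129 value. CAST against 129 gave a log2 fold change of 1.25 ± 0.56 (SE, 95% interval 0.00 to 2.5). This was the 1 value of the 10 genes with an unadjusted p under 0.05 in edgeR's fit across all genes, where the edgeR adjusted p was 0.342. Without CAST 1 and hybrid 2 it was 0.56 ± 0.47 (edgeR adjusted p = 0.656). With an offset for exon length, taken as the union of all annotated exons, it was 0.45 ± 0.40 (edgeR adjusted p = 0.553). Hybrid against CAST gave −0.90 ± 0.55, which was −0.24 without CAST 1 and −0.30 without CAST 1 and hybrid 2. Hybrid against 129 gave 0.35 ± 0.55, which was 0.062 without hybrid 3 and 0.078 without 129 1.

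Rtn4r (ENSMUSG00000043811, chromosome 16, 18127642 to 18152408), the receptor of the Nogo loop on which most work has been done, was at 5.59, 20.1 and 19.6 CPM in hybrid 1 to 3, at 31.9, 7.80 and 12.4 CPM in CAST 1 to 3, and at 6.34, 8.29 and 10.1 CPM in 129 1 to 3. It was highest in CAST 1 and lowest in hybrid 1, and the lines overlapped in all comparisons. On the log2 scale the fold change was 0.87 ± 0.62 in hybrid against 129, −0.20 ± 0.61 in hybrid against CAST and 1.07 ± 0.62 in CAST against 129 (SE), and the last was 0.27 ± 0.54 without CAST 1 and hybrid 2. With the offset for exon length these comparisons gave 0.13 ± 0.42, −0.24 ± 0.42 and 0.37 ± 0.42, in the same order.

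Rtn4rl1 (ENSMUSG00000045287, chromosome 11, 75193783 to 75267769), a receptor that shares with Rtn4r the binding of chondroitin sulphate chains, had the highest adjusted p of the 10 in the joint test. It was at 9.34, 9.78 and 6.57 CPM in hybrid 1 to 3, at 3.82, 8.25 and 8.60 CPM in CAST 1 to 3, and at 14.1, 6.22 and 4.88 CPM in 129 1 to 3. CAST 1, the highest library for the other receptors, was here the lowest, and 129 1 the highest. Mean levels were 8.56 ± 1.74, 6.89 ± 2.67 and 8.41 ± 4.99 CPM in the hybrid, CAST and 129 (SD, n = 3 each). All 3 log2 fold changes lay between −0.28 and 0.31, each with an SE of 0.50.

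The co-receptors Lingo1 and Ngfr were, like Rtn4rl2, highest in CAST 1, whereas Troy was lowest there. Lingo1 (ENSMUSG00000049556, chromosome 9, 56618475 to 56796468), a transmembrane leucine-rich repeat protein that completes the receptor complex, was at 47.3, 74.9 and 114 CPM in hybrid 1 to 3, at 158, 82.0 and 82.4 CPM in CAST 1 to 3, and at 52.9, 55.2 and 80.1 CPM in 129 1 to 3. The lowest CAST library lay just above the highest 129 library, and the hybrid overlapped both. Its log2 fold change was 0.78 ± 0.43 in CAST against 129 (SE, edgeR adjusted p = 0.418; 0.37 ± 0.38 without CAST 1 and hybrid 2), 0.33 ± 0.43 in hybrid against 129 and −0.45 ± 0.43 in hybrid against CAST.

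Ngfr (ENSMUSG00000000120, chromosome 11, 95568818 to 95587735), the p75 neurotrophin receptor, which embryonic motor neurons carry and which adult ones regain after injury, was at 58.2, 70.3 and 124 CPM in hybrid 1 to 3. It was at 202, 155 and 103 CPM in CAST 1 to 3 and at 48.6, 82.6 and 163 CPM in 129 1 to 3. All groups overlapped, and 129 alone spanned most of the range, with 129 1 the lowest of all libraries. The fitted log2 fold change was −0.22 ± 0.51 in hybrid against 129, −0.86 ± 0.52 in hybrid against CAST and 0.64 ± 0.51 in CAST against 129 (SE).

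Tnfrsf19 (ENSMUSG00000060548, chromosome 14, 60963875 to 61046490), the Troy receptor, which can stand in for p75 in the Nogo receptor complex and is also known from neural progenitors and astrocytes, was low throughout. It was at 9.13, 5.03 and 6.85 CPM in hybrid 1 to 3, at 2.68, 10.6 and 13.2 CPM in CAST 1 to 3, and at 29.1, 7.38 and 12.3 CPM in 129 1 to 3. The groups overlapped, with 129 1 highest and CAST 1 lowest. Its log2 fold change of −1.21 ± 0.66 in hybrid against 129 (SE, edgeR adjusted p = 0.297) was −1.02 ± 0.58 without CAST 1 and hybrid 2, and it was −0.50 without 129 1, the library with the highest level. Hybrid against CAST gave −0.33 ± 0.65 and CAST against 129 −0.88 ± 0.65.

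Of the LAR-family phosphatases, Ptprs and Ptprf were abundant in every line and Ptprd less so. Ptprs (ENSMUSG00000013236, chromosome 17, 56412426 to 56476483), the sigma phosphatase and the best known receptor for chondroitin sulphate, was at 553, 199 and 420 CPM in hybrid 1 to 3, at 333, 620 and 650 CPM in CAST 1 to 3, and at 538, 463 and 513 CPM in 129 1 to 3. Its lowest values were in hybrid 2 and CAST 1, and the other 7 libraries lay between 420 and 650 CPM. The log2 fold change was −0.37 ± 0.48 in hybrid against 129, −0.45 ± 0.48 in hybrid against CAST and 0.08 ± 0.48 in CAST against 129 (SE). Without those 2 libraries the SE was smaller and the values were −0.04 ± 0.26, −0.34 ± 0.28 and 0.30 ± 0.26.

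Ptprf (ENSMUSG00000033295, chromosome 4, 118208213 to 118291405), the LAR phosphatase itself, had the same 2 lowest libraries. It was at 356, 69.6 and 228 CPM in hybrid 1 to 3, at 92.3, 372 and 481 CPM in CAST 1 to 3, and at 456, 349 and 340 CPM in 129 1 to 3. Hybrid 2 was again the lowest and CAST 1 next, and the groups overlapped. Its log2 fold change was −0.81 ± 0.69 in hybrid against 129 and −0.27 ± 0.69 in CAST against 129 (SE), and −0.38 ± 0.32 and 0.13 ± 0.31 without both libraries. In hybrid against CAST it was −0.53 ± 0.69.

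Ptprd (ENSMUSG00000028399, chromosome 4, 75941238 to 78211961), the delta phosphatase, known mainly as a presynaptic organiser, was at 90.9, 93.2 and 80.4 CPM in hybrid 1 to 3, at 27.6, 155 and 143 CPM in CAST 1 to 3, and at 96.3, 138 and 238 CPM in 129 1 to 3. The hybrid libraries lay close together and all below those of 129, while CAST overlapped both. Its log2 fold change was −0.84 ± 0.60 in hybrid against 129 (SE, edgeR adjusted p = 0.405) and −0.86 ± 0.37 without CAST 1 and hybrid 2 (edgeR adjusted p = 0.185). It was 0.70 with the offset for exon length, so its sign depended on how length was treated. That length is the union of all annotated exons, 22822 bases for Ptprd, whose longest coding transcript has 9899. An offset by transcript length was not run. Hybrid against CAST gave −0.30 ± 0.60 and CAST against 129 −0.54 ± 0.60.

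**Figure D2:**
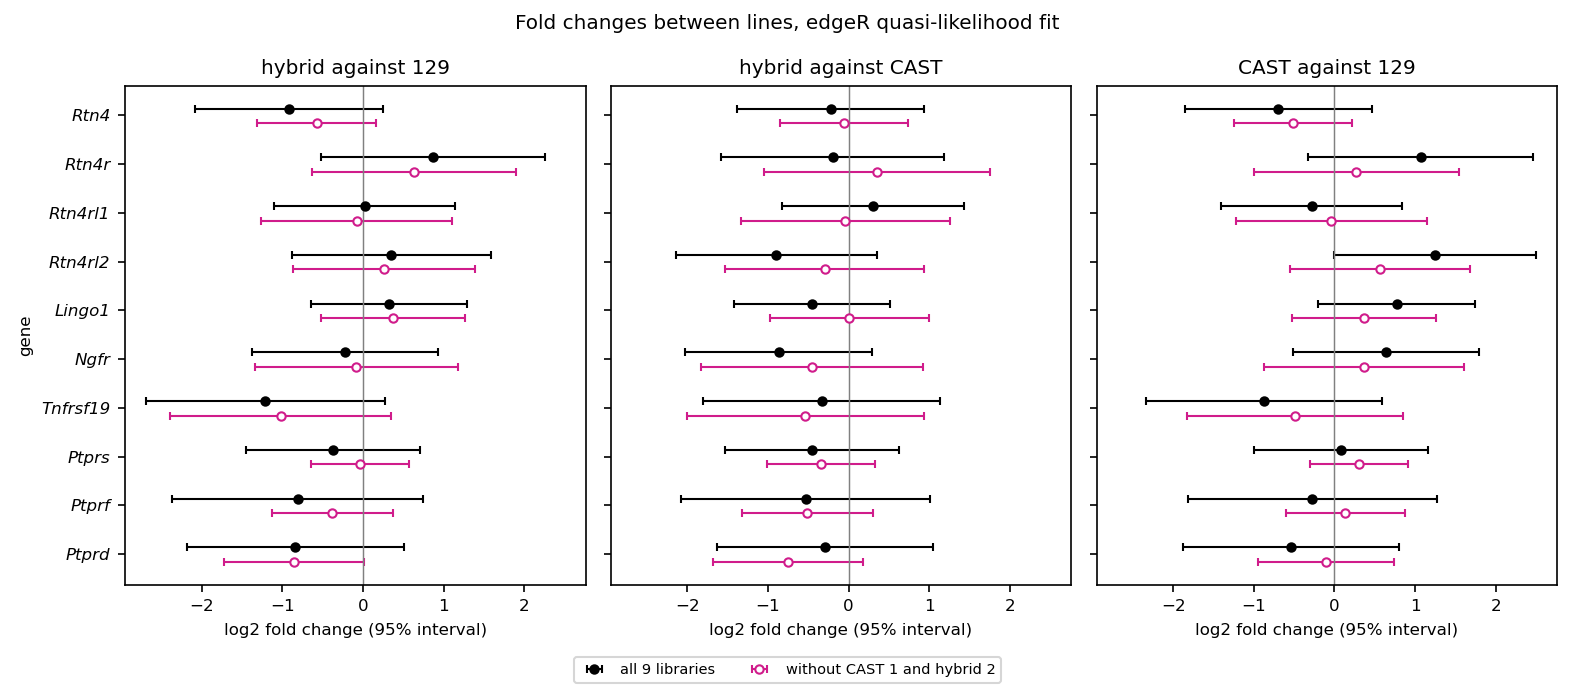
Log2 fold changes of the 10 genes in hybrid against 129, hybrid against CAST and CAST against 129, with 95% intervals from edgeR's quasi-likelihood fit. Filled points use all 9 libraries and open points leave out CAST 1 and hybrid 2. With all 9 libraries every interval includes 0 except that of Rtn4rl2 in CAST against 129, which starts at 0.00 and ends at 2.5.

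As a set, the genes had a median log2 fold change of −0.30 in hybrid against 129 (0.02 over all tested genes), −0.39 in hybrid against CAST (−0.08) and −0.10 in CAST against 129 (0.06). On the log2 scale the fold change was positive for 4, 1 and 5 of the 10 in these comparisons, beside 50.7%, 45.4% and 52.4% of all tested genes. The comparisons share libraries pairwise and are not independent of each other. Without CAST 1 and hybrid 2 the medians were −0.08, −0.32 and 0.20, against −0.00, 0.04 and −0.02 over all genes. With an offset for exon length, 3 genes changed sign in hybrid against 129 beside Rtn4rl1, namely Rtn4rl2 (−0.48), Ptprs (0.50) and Ptprd (0.70). For Ptprs and Ptprd that length was 14990 and 22822 bases, against 6855 and 9899 in the longest coding transcript.

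Levels of different genes were compared per kilobase of the longest protein-coding transcript (CPM per kb). Rtn4 was the highest of the 10 in all 9 libraries, with 163 ± 74.5 CPM per kb in the hybrid, 190 ± 50.7 in CAST and 307 ± 68.7 in 129 (SD, n = 3 each). Ptprs was second in 8 libraries, with 57.0 ± 26.1, 78.0 ± 25.5 and 73.6 ± 5.53 CPM per kb in the hybrid, CAST and 129. After it came Ptprf, Ngfr, Lingo1 and Rtn4rl2, whose means ran from 14 to 49.8 CPM per kb. Ptprd stood at 8.91, 10.9 and 15.9 CPM per kb in the hybrid, CAST and 129, above Rtn4rl2 in 129 alone, and Rtn4r at 7.80, 8.96 and 4.26. Neighbours in the order of means overlapped in their libraries, except Rtn4r and Rtn4rl1 in the hybrid, Rtn4 and Ptprs, Lingo1 and Ptprd, and Rtn4r and Tnfrsf19 in CAST, and Rtn4 and Ptprs, Ptprs and Ptprf, and Rtn4rl2 and Rtn4r in 129. Rtn4rl1 and Tnfrsf19 were the lowest in every line, at 1.73 to 4.02 CPM per kb. Among the Nogo receptors Rtn4rl2 was the highest and Rtn4rl1 the lowest in each. Divided by the union of all annotated exons, which includes retained introns, the mean of Ptprs was 26.1, 35.7 and 33.7 CPM per kb in the hybrid, CAST and 129, which placed it below Ngfr in CAST and below Ptprf in 129.

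Levels also followed single libraries across the lines. Rtn4r, Rtn4rl2, Lingo1 and Ngfr were each highest in CAST 1 and each had their 2 lowest levels in hybrid 1 and 129 1. CAST 1 also had the highest summed neuron markers, 15027 CPM, and hybrid 1 and 129 1 the lowest, 4995 and 5032 CPM. The place of CAST 1 depended on the summary, since a sum is carried by the most abundant genes. By the mean log2 CPM of the same markers CAST 1 (8.70) lay below 129 3 (9.35), hybrid 3 (9.09) and CAST 2 (8.90). Hybrid 1 and 129 1 were again the lowest, at 7.94 and 8.02. The same 2 libraries had the highest summed fibroblast markers, 22719 and 21357 CPM. The part of culture make-up in the differences between lines was not tested. Of the 10 genes, Rtn4rl2 and Rtn4r have the shortest exon lengths, 1506 and 1938 bases, and long transcripts were scarce in CAST 1. The part of length in the levels of these genes was not tested. Rtn4, Ptprs and Ptprf were each lowest in hybrid 2 and next lowest in CAST 1, the libraries in which long transcripts were scarce, and the part of this in their differences was not tested either. In hybrid against 129 the SE of these 3 genes was 0.48 to 0.69 with all libraries and 0.26 to 0.32 without both. Other genes did not follow exon length in this way. Ptprd, the longest at 22822 bases, was lowest in CAST 1 but stood at 93.2 CPM in hybrid 2, the highest of the hybrid libraries. Lingo1 and Ngfr (4715 and 3446 bases) were highest in CAST 1, whereas Tnfrsf19 and Rtn4rl1, of like length (4738 and 3525 bases), were lowest there.

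**Figure D3:**
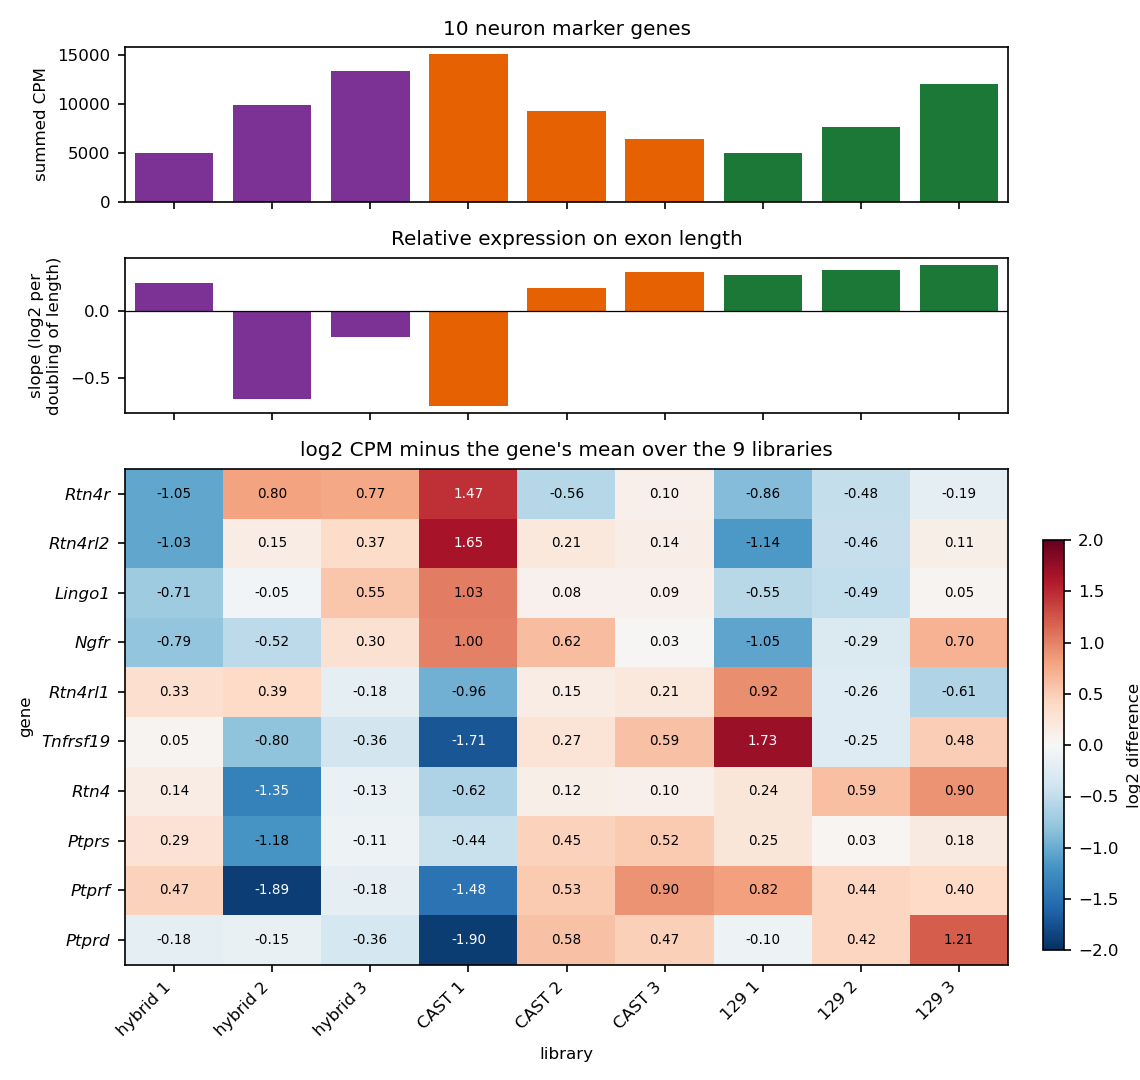
Levels of the 10 genes in each library as log2 CPM minus the gene's mean over the 9 libraries (lower panel), beside the summed CPM of 10 neuron markers (upper bars) and the change of relative expression per doubling of exon length (middle bars). Rtn4r, Rtn4rl2, Lingo1 and Ngfr are highest in CAST 1, at 1.0 to 1.65, and Rtn4, Ptprs and Ptprf lowest in hybrid 2, at −1.18 to −1.89.

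Among 11282 named genes with a mean of at least 5 CPM, those most like each gene over the 9 libraries were found by Pearson's r of log2 CPM, which is a description of 9 libraries that share the depth and length differences given above. For Rtn4rl2 they were Gal3st3 and Rap1gap (r = 0.988 and 0.985), for Lingo1 Nyap1 and Dpf1 (0.979 and 0.978), for Ngfr Slc25a27 and Cds1 (0.989 and 0.984), and for Rtn4r Lrrc73 and Map3k10 (0.980 and 0.965). For Rtn4 they were Gpr137c and Adam22 (0.993 and 0.990), for Ptprf Tshz1 and Zfp664 (0.996 and 0.995), for Ptprd Shisa6 and Ksr2 (0.980 and 0.978), and for Ptprs Pfas and the proteoglycan gene Agrn (0.999 and 0.988). The closest genes to Tnfrsf19 and Rtn4rl1 were less alike, with Gca and Tril at 0.966 and 0.938 and Klhl25 and Nfkb2 at 0.917 and 0.916. Within the set, r was 0.959 between Rtn4rl2 and Lingo1 and 0.943 between Ptprs and Ptprf, and −0.838 between Ngfr and Rtn4rl1.

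Ligands, partners and related genes of these receptors were read from 7 lists holding 81 tested genes. EdgeR called 1 higher and 0 lower in hybrid against 129, 3 higher and 1 lower in hybrid against CAST, and 0 in CAST against 129 (0.391% of all genes were called higher there and 0.526% lower). DESeq2 called 7, 9 and 3 of the 81 in hybrid against 129, hybrid against CAST and CAST against 129, and limma-voom called 1, 4 and 2. Of all 14839 tested genes DESeq2 called 2100, 1597 and 939 in these comparisons, and limma-voom 1138, 998 and 263. An unadjusted p under 0.05 in edgeR was found for 10, 10 and 12 of them, where the shares of all genes were 22.2%, 15.8% and 14.6%. The shares of all genes called higher and lower were 5.41% and 1.6% in hybrid against 129, and 4.41% and 1.6% in hybrid against CAST. Pirb, Sdc1 and Trio, which belong to these lists, were not analysed here.

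The gene called in hybrid against 129, Gpc2, was called in hybrid against CAST as well, a comparison that shares the hybrid libraries. Gpc2, a glypican of developing neurons whose heparan sulphate chains are a ligand class of the LAR family, was at 30.1, 17.7 and 70.9 CPM in hybrid 1 to 3, at 1.14, 6.51 and 1.72 CPM in CAST 1 to 3, and at 1.28, 1.83 and 2.24 CPM in 129 1 to 3. Every hybrid library was above every library of CAST and 129. The fitted log2 fold change was 4.47 in hybrid against 129 (edgeR adjusted p = 0.00877, and 0.0521 without 129 2) and 3.64 in hybrid against CAST (adjusted p = 0.0203 in edgeR, and 0.0606 and 0.0851 without hybrid 3 and without CAST 3, 0.0712 with 129 left out of the fit, and 0.0599 with the replicate number as a block).

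Called in hybrid against CAST alone, and named here after their values were seen, were Bcan, Gpc3 and Ust. Bcan, the brain proteoglycan brevican, was at 2.10 to 2.93 CPM in the hybrid and 0.103 to 0.573 CPM in CAST (log2 fold change 2.75, edgeR adjusted p = 0.022), and 129 stood at 2.59 CPM on average. Gpc3, a glypican, was at 23.8 to 93.5 CPM in the hybrid and 6.92 to 15.8 CPM in CAST (2.45, edgeR adjusted p = 0.0492). Ust, which sulphates uronic acid in chondroitin and dermatan chains, was lower, at 12.9 to 25.5 CPM in the hybrid and 41.1 to 75.6 CPM in CAST (−1.83, edgeR adjusted p = 0.0216). Each of these calls ended with the replicate number as a block, at edgeR adjusted p = 0.0729, 0.171 and 0.0562, and with 129 left out of the fit, at 0.0795, 0.101 and 0.0999. The Bcan call also ended without hybrid 1, hybrid 3, CAST 2 or 129 2 (0.0578, 0.0655, 0.0902 and 0.0514), and the Ust call without hybrid 2, hybrid 3 or CAST 2 (0.0855, 0.0866 and 0.0823). Gpc3 passed without hybrid 3 (edgeR adjusted p = 0.021) but with no other single library left out (0.0521 to 0.131), and without CAST 1 and hybrid 2 together the Gpc3 and Ust calls ended (0.181 and 0.0774). The Gpc3 call also ended in limma-voom (adjusted p = 0.076) and in edgeR with the exon length offset (adjusted p = 0.0779), and it held in 4 of 17 alternatives.

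**Figure D4:**
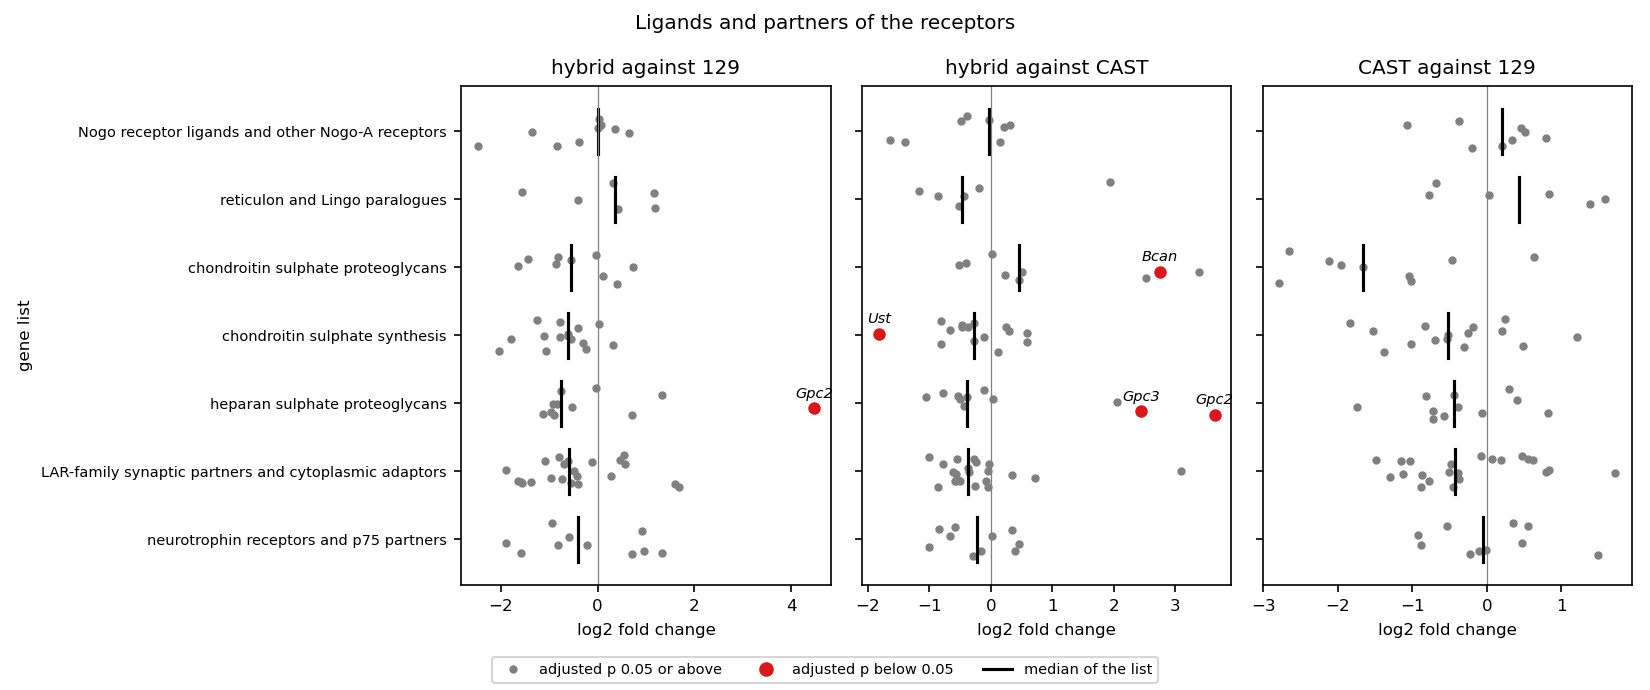
Log2 fold changes of the tested genes in 7 lists of ligands, partners and related genes, in hybrid against 129, hybrid against CAST and CAST against 129. Red points passed an edgeR adjusted p of 0.05, grey points did not, and bars are list medians. Mag, with 0 counts in CAST, is not drawn in the comparisons with CAST and enters their medians at its bound.

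Among the 9 genes of the list of Nogo receptor ligands and further receptors of Nogo, 0 passed in any comparison. In hybrid against 129 they stood at a median log2 fold change of 0.01, beside 0.02 over all tested genes, to which the medians below compare. The most abundant were Olfm1, a secreted olfactomedin that binds the Nogo receptor (419, 587 and 411 CPM in the hybrid, CAST and 129), and Tspan3, a tetraspanin that takes part in Nogo-A signalling (396, 319 and 252 CPM). The myelin ligand Mag, myelin-associated glycoprotein, was nearly unread, at 0.792 CPM in the hybrid, 0 in CAST and 2.02 CPM in 129, and Omg, oligodendrocyte myelin glycoprotein, averaged 3.60, 11.3 and 6.53 CPM. Rtn4 stood far above both in every line. Reticulon and Lingo paralogues (6 tested, 0 called) had a median of 0.37, with Rtn1 at 635, 909 and 512 CPM and Rtn3 at 505, 683 and 666 CPM in the hybrid, CAST and 129.

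Chondroitin sulphate proteoglycans, the ligands at which LAR-family receptors stop axons, had 0 of 9 called in hybrid against 129 (median log2 fold change −0.55). In hybrid against CAST the median was 0.46 (−0.08 over all genes), with 7 of 9 above 0 (45.4% of all tested genes) and Bcan called. In CAST against 129 the median was −1.66 (0.06 over all genes), with 0 called and 1 of 9 above 0 (52.4% of all tested genes). The 2 most abundant, Bgn and Dcn, small proteoglycans of connective tissue, were at 1149 and 673 CPM in the hybrid, 199 and 64.4 CPM in CAST and 865 and 404 CPM in 129. Dcn is also among the fibroblast markers given above. Their sum was lower in all CAST libraries than in hybrid 1, hybrid 2, 129 1 and 129 2. It was higher in all CAST libraries than in hybrid 3 and 129 3 (1602 and 4344 CPM). The part of these markers' cells in the levels of Bgn and Dcn was not tested. Enzymes of chondroitin sulphate synthesis had 0 of 15 called in hybrid against 129 and a median of −0.61, with Chpf at 96.4, 133 and 94.8 CPM and Chsy1, a synthase, at 54.3, 75.4 and 92.9 CPM in the hybrid, CAST and 129. Heparan sulphate proteoglycans had a median of −0.77, with Gpc2 the 1 called of 11.

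Partners inside and across the synapse and of the p75 receptor had medians below 0 in hybrid against 129, and none of them passed. Synaptic partners and adaptors of the LAR family had 0 of 22 called and a median of −0.58, and the most abundant were Ppfibp1 and Ppfia2, of the liprin family named for its binding to LAR (69.2, 102 and 209 CPM and 79.5, 136 and 129 CPM in the hybrid, CAST and 129). Neurotrophin receptors and partners of p75 had 0 of 10 called and a median of −0.40, and Maged1, an adaptor of p75, was at 1534, 1203 and 941 CPM and Bex3 at 479, 363 and 248 CPM in the hybrid, CAST and 129.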

How the data were processed

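The deposited matrix holds whole-number read counts per Ensembl gene, made by the authors, with 9 libraries of poly-T selected RNA and random hexamer cDNA, per the labels' protocols. STAR and mm10 are named in the submitters' processing notes; for the STAR version, counter, annotation and strand the sources used here give nothing. Symbols (27031 of 27071 IDs matched), lengths, coordinates and coding sequences came from GENCODE M21 (GRCm38, the mm10 build). The 10 genes and the lists were chosen with earlier results of these data known. Another list of related genes is not reported here.

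Counts were filtered with filterByExpr (minimum count 10, total 15, proportion 0.7), scaled by TMM and fitted in edgeR 4.0.16 (R 4.3.3) by the robust quasi-likelihood test with all 3 lines in 1 model; p-values were adjusted by Benjamini-Hochberg over 14839 genes with a threshold of 0.05. Groups follow the strain labels. Levels are TMM-scaled CPM. Alternatives were DESeq2 1.42.0 (test and size factors), limma 3.58.1 voom, no filter, only the compared lines, a replicate block, an offset for exon length (lowess span 0.3), each library left out, and CAST 1 and hybrid 2 left out together. The scripts were tested on simulated data. Genes named from the lists were up to 3 each way passing in hybrid against 129, or else the 2 with the highest mean CPM, and any passing in CAST against 129. Total counts were 7763077 to 18167577 per library.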

Additional observations from a re-analysis of the deposited data

How the results depend on the processing

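The number of the 10 genes called stayed at 0 in each comparison under every alternative run. The calls of all genes did vary: DESeq2 gave 2100, 1597 and 939 in hybrid against 129, hybrid against CAST and CAST against 129, where edgeR gave 1041, 891 and 136. With the replicate number as a block the counts were 561, 526 and 6, with 0 of the 10 genes called. Deviations of libraries with the same number from their line means correlated at r from −0.718 to 0.494, above 0.1 in 2 of 9 pairs. These deviations include the length differences of CAST 1 and hybrid 2, so they cannot decide whether the numbers pair the samples. The labels state no pairing, and the main fit used none.

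Signs of uncalled log2 fold changes turned in some settings, and the cause was not tested. In hybrid against 129, Rtn4rl1 was −0.044 without the filter, −0.079 without CAST 1 and hybrid 2, and −0.097 with the exon length offset. That offset also gave −0.48 for Rtn4rl2, 0.50 for Ptprs and 0.70 for Ptprd, and 0.48 and 0.22 for Ptprd in hybrid against CAST and CAST against 129. In hybrid against CAST, Ptprd was 0.065 in limma-voom and 0.0030 with the replicate block. Without CAST 1 and hybrid 2 that comparison gave 0.36 for Rtn4r, −0.043 for Rtn4rl1 and 0.011 for Lingo1, and CAST against 129 gave 0.13 for Ptprf. With single libraries left out, hybrid against 129 ranged from −0.26 to 0.61 for Rtn4rl1, −0.056 to 0.57 for Lingo1 and −0.63 to 0.35 for Ngfr. Hybrid against CAST ranged from −0.51 to 0.14 for Rtn4, −0.56 to 0.56 for Rtn4r, −0.75 to 0.059 for Tnfrsf19 and −0.76 to 0.037 for Ptprd. CAST against 129 ranged from −0.56 to 0.31 for Rtn4rl1, −0.085 to 0.32 for Ptprs and −0.72 to 0.14 for Ptprf. Counts behind the values were low for Rtn4rl1, with group sums of 296, 304 and 441 in the hybrid, CAST and 129. In hybrid against 129 with all libraries its SE was 0.50, beside 0.52 for the abundant Rtn4. Without CAST 1 and hybrid 2 the SE was 0.50 for Rtn4rl1 and 0.31 for Rtn4.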

Other observations

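Among markers of glia and microglia, 1 oligodendrocyte and 1 microglia gene were called higher in the hybrid than in either other line. Mog, a myelin glycoprotein of oligodendrocytes, averaged 13.7 ± 8.47 CPM in the hybrid, 0 in CAST and 0.185 ± 0.321 CPM in 129 (SD, n = 3 each), with edgeR adjusted p = 0.0168 in hybrid against CAST and 0.0337 in hybrid against 129. Cx3cr1, a chemokine receptor of microglia, averaged 28.7 ± 8.47 CPM in the hybrid, 0.485 ± 0.745 CPM in CAST and 0.0592 ± 0.0611 CPM in 129, with edgeR adjusted p = 0.0113 and 0.00409. Gfap, an astrocyte filament, averaged 181 ± 116 CPM in the hybrid, 13.2 ± 11 CPM in CAST and 11.1 ± 13.8 CPM in 129, and did not pass (edgeR adjusted p = 0.0953 and 0.0691). Sox10, of oligodendrocytes and Schwann cells, was near 0 in each line, at 0.582, 0.0239 and 0.271 CPM. Other genes of these lists differed. Ptprc, Aif1 and Tyrobp averaged 0.909, 0.21 and 0.0466 CPM in the hybrid. Mobp was at 0 there, and Mbp averaged 4.18, 7.59 and 19.5 CPM in the hybrid, CAST and 129. Cnp (71, 28.4 and 38.5 CPM) and Olig1 (5, 2.12 and 3.06 CPM) had their highest means in the hybrid. Mog and Cx3cr1 alone do not establish that oligodendrocytes or microglia were present. These marker values were not recomputed under other settings, and their relation to the receptor levels was not tested.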
